A study of Mus musculus with 12 samples.

Results

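Trim33-deficient embryoid bodies collected on day 2.5 of differentiation were set against control embryoid bodies collected on day 2, with 3 libraries on each side. The 6 libraries were taken by their sample titles out of 12 in the series. The other 6, 3 of day 2.5 control bodies and 3 of day 2 Trim33-deficient bodies, served to read which way control bodies went between the days and where deficient bodies stood on day 2. The question was which genes of the deficient bodies still lay at the earlier control level, and which had left that level in a direction that control bodies did not take.

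Embryoid bodies are aggregates that embryonic stem cells form in suspension once the factors that keep them undifferentiated are withdrawn. The stem cell lines, per the labels, were derived from embryos of an outbred mouse strain, were homozygous for a floxed Trim33 allele and carried a Cre recombinase that tamoxifen activates and that a broadly active promoter drives. They were grown without feeders in LIF and 2i, a pair of kinase inhibitors, at passages 8 to 10, and then aggregated on low attachment dishes. Deletion was started with 4-hydroxytamoxifen on day 1. The control libraries are labelled wildtype, the protocol describes every line as floxed and Cre-bearing, and the sources used here do not say whether control cultures also received tamoxifen. The labels speak of 3 independent pairs. Because day and genotype both differ between the compared groups, they cannot be told apart from this comparison alone, and the values of day 2.5 control bodies are therefore given beside it.

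Trim33 (also called TIF1-gamma or Ectodermin) is a chromatin-binding ubiquitin ligase of the TRIM family that takes part in Nodal and other TGF-beta family signalling through Smad proteins. In embryoid bodies, cells leave naive pluripotency, the state held by LIF, STAT3 and factors such as Esrrb, Klf2 and Tfcp2l1. They pass through a primed, epiblast-like state marked by Otx2, Fgf5 and Dnmt3b, and Nodal signalling then helps to turn on genes of the primitive streak, such as T and Eomes.

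Libraries held 10066338 to 16529627 counts assigned to genes, and the 6 compared libraries 12594543 to 16529627. All values below are CPM, gene counts scaled to a common library size with edgeR's TMM factors. The floor, 3 counts in a library, corresponds to 0.179 to 0.318 CPM and covers counting error only. The ribosomal RNA precursor Rn45s took 0.829 to 1.04% of counts in day 2 control and 1.08 to 1.67% in day 2.5 Trim33-deficient libraries, but 11.9% in replicate 2 of day 2.5 control and 7.87% in replicate 1 of the deficient bodies on day 2. Of the reads counted, 43.1 to 43.6% had been given to a gene in day 2 control and 41.8 to 42.5% in day 2.5 Trim33-deficient libraries. In both measures the compared groups did not overlap, and their part in the results was not tested. Day 2 control replicate 2 stood highest in the genes of hypoxia and glycolysis, by a median of 0.56 log2 units above their mean over all libraries. Pluripotency genes were abundant in every compared library (Pou5f1 809 to 976 CPM, Sox2 191 to 224 CPM). Defining genes of other cell types were uneven there. Afp, Elf5, Prl3d1 and Postn had 0 counts in all 6, and Ttr lay between 0 and 0.240 CPM. Others were detected, among them Thy1 at 6.11 to 18.6 CPM, Eomes at 9.38 to 16.6 CPM, Sox1 at 7.04 to 16.5 CPM and Pax6 at 6.42 to 10.2 CPM. The summed level of fibroblast markers was 45.3 to 50.4 CPM in control and 46.3 to 50.5 CPM in deficient libraries. In bulk samples, fewer cells of a type and less RNA per cell cannot be told apart.

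Trim33 checked the labels. Its level was 275, 261 and 277 CPM in the day 2 control libraries and 54.4, 57.6 and 62.8 CPM in the day 2.5 Trim33-deficient libraries. The groups did not overlap, and the log2 fold change was -2.22 ± 0.06 (SE, n = 3 per group), 4.65-fold lower, with an adjusted p of 2.78e-12 in edgeR's quasi-likelihood test with Benjamini-Hochberg adjustment, the test behind every adjusted p below. Day 2 Trim33-deficient libraries already averaged 66.0 CPM, and day 2.5 control libraries 250 CPM.

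Of 14356 genes tested between day 2.5 Trim33-deficient and day 2 control bodies, 3114 rose (21.7%) and 2937 fell (20.5%) at an adjusted p under 0.05. The median log2 fold change over all genes tested was -0.0022. Large changes were mostly upward: 735 genes rose and 183 fell by at least 2-fold. For 8399 genes (58.5%) the 95% interval of the difference lay within 1.5-fold either way of the day 2 control level. Between day 2 and day 2.5 in control bodies, 1177 genes rose (8.2%) and 1136 fell (7.91%). Of these, 143 rose and 154 fell by at least 2-fold. That count of 2313 genes dropped to 1235 without day 2 control replicate 3 and to 1434 without day 2.5 control replicate 3. Between the genotypes on day 2.5, 3165 genes were higher (22%) and 2978 lower (20.7%) in deficient bodies. The comparisons share libraries, so their counts are not separate evidence. On day 2 itself 9.84% of genes differed between the genotypes. Between the days within deficient bodies 2300 genes (16%) differed, a count close to the 2313 of control bodies.

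The largest rise among genes with a mean of at least 1 CPM was that of Fgfbp1, a secreted carrier of fibroblast growth factors. It stood at 10.01, 6.73 and 8.81 CPM in day 2 control libraries and at 127, 115 and 138 CPM in day 2.5 Trim33-deficient libraries. The groups were far apart, with a log2 fold change of 3.90 ± 0.14 and an adjusted p of 8.64e-10. Day 2 Trim33-deficient bodies held an intermediate 34.0 CPM and day 2.5 control bodies 15.3 CPM. Tdpoz4, a BTB-domain gene of the early mouse embryo, rose from 2.24, 0.387 and 2.36 CPM to 14.8, 14.4 and 16.1 CPM (log2 3.19 ± 0.45, adjusted p 0.000224).

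Among the largest falls, the secreted hormones Adm (adrenomedullin) and Stc1 (stanniocalcin 1) had an uneven control group. Stc1 (log2 -3.03, adjusted p 0.00743) kept its call under every alternative, at an adjusted p of up to 0.0297. Adm was at 5.29, 23.1 and 8.50 CPM in control and between 0.878 and 1.67 CPM in the 3 deficient libraries (log2 -3.27 ± 0.89, adjusted p 0.0168). It is a hypoxia-responsive gene, its highest value was in day 2 control replicate 2, and the adjusted p rose to as much as 0.0594 when that library or deficient replicate 2 or 3 was left out. Hopx, an atypical homeodomain gene, had no such library: 6.81, 12.1 and 9.29 CPM fell to 1.96, 1.83 and 2.92 CPM (log2 -2.05 ± 0.23, adjusted p 4.57e-06). Hlf, a transcription factor of the PAR family, fell from 6.73, 8.89 and 7.63 CPM to 1.38, 2.05 and 1.73 CPM (log2 -2.17 ± 0.24, adjusted p 4.16e-06).

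The control course, from day 2 to day 2.5 in control bodies, gave the direction against which each gene was read. Of the 143 genes that rose by at least 2-fold along it, 69 had also risen in day 2.5 deficient bodies against day 2 control, 0 had fallen and 74 did not pass. Of those 74, only 6 had an interval within 1.5-fold of the day 2 level. For the other 68 the data do not fix whether they lay near it. Of the 154 genes that fell by at least 2-fold, 38 fell, 12 rose and 104 did not pass, 16 of these with the interval within 1.5-fold. The median log2 change of the risers was 1.20 in the control course and 0.79 in deficient bodies against day 2 control. For the fallers it was -1.32 and -0.32. The sets were chosen by the control course and share its day 2 libraries, so these medians are a description.

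**Figure D1:**
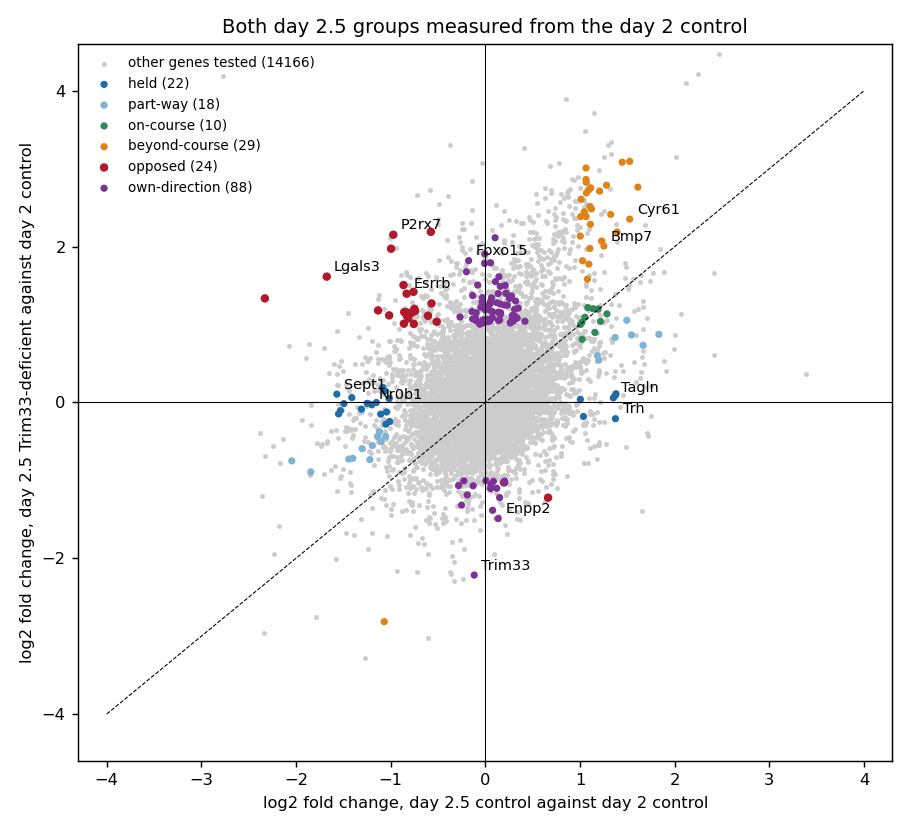
Log2 fold change of each tested gene along the control course (day 2.5 control against day 2 control, horizontal) and in day 2.5 Trim33-deficient against day 2 control bodies (vertical), from edgeR fits that share the day 2 control libraries. Held genes lie near 0 on the vertical axis at least 1 log2 unit from 0 on the horizontal one, opposed genes lie in the quadrants of unlike sign, and own-direction genes lie above 1 or below -1 on the vertical axis near 0 on the horizontal one.

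Genes were sorted into 6 classes by the 3 comparisons among day 2 control, day 2.5 control and day 2.5 deficient bodies. A held gene changed by at least 2-fold along the control course and had a 95% interval within 1.5-fold of the day 2 control level. In day 2.5 deficient against day 2.5 control bodies it also differed in the direction opposite to the course. A part-way gene moved with the course but stopped short of it, an on-course gene ended within 1.5-fold of the day 2.5 control level, and a beyond-course gene overshot it. An opposed gene changed along the course and by at least 2-fold the other way in day 2.5 deficient against day 2 control bodies. An own-direction gene changed by at least 2-fold in that comparison while the control course stayed within 1.5-fold. Both are measured from day 2 control, so such a gene may already have differed between the genotypes on day 2. The classes held 190 genes, and Rac1 was in 2 of them. The demand for tight intervals leaves most genes in no class: 92 of the 143 course risers and 122 of the 154 course fallers had none.

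Held genes numbered 22 (0.153% of genes tested). In control bodies 6 of them rose and 16 fell, and in day 2.5 deficient bodies all lay near the day 2 control level. Their log2 differences from day 2 control ran from -0.28 to 0.19. Leaving out day 2 control replicate 3 gave 14, and leaving out deficient replicate 2 of day 2.5 gave 10.

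Among the held risers, Trh, the precursor of thyrotropin-releasing hormone, was the most abundant. It stood at 129, 142 and 105 CPM in day 2 control and at 86.9, 111 and 126 CPM in day 2.5 Trim33-deficient libraries, which overlapped, while day 2.5 control libraries reached 335, 316 and 321 CPM. Its log2 difference from day 2 control was -0.21 ± 0.16 (95% interval -0.57 to 0.15), against 1.37 ± 0.16 along the control course (adjusted p 0.000539). Tagln, the actin-binding protein transgelin, read 10.2, 12.4 and 11.6 CPM in day 2 control and 10.4, 11.1 and 14.0 CPM in deficient libraries. Control bodies on day 2.5 had 24.2, 40.2 and 23.9 CPM, the highest in the library rich in Rn45s. Timp2, an inhibitor of matrix metalloproteinases, and Cpe, a carboxypeptidase that trims peptide hormones, followed the same order of levels: Timp2 averaged 3.49 CPM in day 2 control, 3.73 CPM in deficient and 9.08 CPM in day 2.5 control libraries, and Cpe 2.33, 2.48 and 6.09 CPM.

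The held fallers included Nr0b1 (Dax1), a nuclear receptor of the naive pluripotency network. It was at 16.7, 14.2 and 18.4 CPM in day 2 control and 18.04, 16.3 and 14.1 CPM in day 2.5 deficient libraries, which overlapped, and at 8.73, 5.95 and 6.61 CPM in day 2.5 control. Its log2 difference from day 2 control was -0.03 ± 0.17 (95% interval -0.39 to 0.32), and along the control course it fell by 1.20 on the log2 scale (adjusted p 0.000684). Morc1, which silences transposons in male germ cells, was at 59.2, 54.4 and 67.1 CPM in day 2 control and 66.8, 57.8 and 54.7 CPM in deficient libraries, against 29.3, 21.1 and 25.2 CPM in day 2.5 control. Sept1, a septin, averaged 41.8, 44.9 and 13.9 CPM in the same order, and Hydin, a gene of motile cilia, 5.63, 5.91 and 2.14 CPM. Notch4, a Notch receptor, and Ifi35, an interferon-induced gene, were held too, at 8.18 and 9.05 CPM and at 9.54 and 8.63 CPM in day 2 control and day 2.5 deficient bodies.

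Part-way genes numbered 18 (0.125%), 7 upward and 11 downward. Ppp4r4, a regulatory subunit of protein phosphatase 4, was at 6.01, 5.26 and 4.49 CPM in day 2 control, 7.20, 8.92 and 12.5 CPM in day 2.5 deficient and 19.4, 19.5 and 17.3 CPM in day 2.5 control libraries. The 3 groups did not overlap, and the rise over day 2 control was 0.87 ± 0.22 on the log2 scale (adjusted p 0.00613) against 1.83 ± 0.21 in control bodies. Cdk14, a cyclin-dependent kinase that acts in Wnt signalling, averaged 5.90, 12.3 and 16.6 CPM in that order, and Prom1 (CD133), a membrane protein of progenitor cells, 31.4, 47.6 and 71.6 CPM. Slfn9, a Schlafen gene, fell from 11.1 CPM to 6.78 CPM in deficient and 4.23 CPM in day 2.5 control bodies. Without day 2.5 Trim33-deficient replicate 2, or without replicate 3, 11 genes were part-way.

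On-course genes numbered 10 (0.0697%) and all of them went upward. Olig1, a transcription factor of oligodendrocyte precursors, stood at 11.9, 12.8 and 11.5 CPM in day 2 control, 28.2, 29.3 and 25.7 CPM in day 2.5 deficient and 25.9, 28.7 and 28.1 CPM in day 2.5 control libraries. Both day 2.5 groups lay well above day 2 and overlapped each other. The rise over day 2 control was 1.20 ± 0.09 on the log2 scale (adjusted p 1.88e-07) and the genotypes differed by 0.01 on day 2.5 (adjusted p 0.949). Wls, which carries Wnt ligands to the cell surface, rose from 14.4 CPM to 29.5 CPM in deficient and 33.5 CPM in control bodies. Nefm, a neurofilament subunit, rose from 6.98 to 16.04 and 15.3 CPM, and Syt1, a synaptic vesicle protein, from 1.47 to 3.24 and 3.60 CPM. The count was 17 without day 2 control replicate 1 and 6 without day 2.5 control replicate 1.

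Beyond-course genes numbered 29 (0.202%), 28 upward and 1, Il10, downward. Cyr61, a matricellular protein and target of the YAP coactivator, was at 7.93, 9.36 and 8.73 CPM in day 2 control and 41.8, 39.1 and 51.9 CPM in day 2.5 deficient libraries (log2 2.35 ± 0.22, adjusted p 9.02e-06). Day 2.5 control libraries held 20.2, 35.7 and 20.1 CPM, again highest in the library rich in Rn45s. The BMP ligand Bmp7 rose from 2.80, 3.33 and 1.97 CPM to 10.7, 11.1 and 10.8 CPM (log2 2.01 ± 0.24, adjusted p 1.12e-05), with 5.38, 9.59 and 4.79 CPM in day 2.5 control. Thsd7a, a membrane protein with thrombospondin repeats, averaged 2.07 CPM in day 2 control, 9.47 CPM in deficient and 5.47 CPM in day 2.5 control libraries. Dusp8, a phosphatase of MAP kinases, averaged 1.32, 9.39 and 2.75 CPM, and Casp8, the initiator caspase of death receptors, 1.26, 3.80 and 2.67 CPM. Il10, an interleukin, fell from 2.40, 3.40 and 2.91 CPM to 0.364, 0.293 and 0.536 CPM, close to the floor (log2 -2.81 ± 0.41, adjusted p 4.91e-05). The class shrank to 9 genes when day 2 control replicate 2 was left out. Leaving out replicate 1 of day 2.5 control gave 11, leaving out its replicate 3 gave 16, and leaving out the 3 libraries that stood apart gave 16.

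Opposed genes numbered 24 (0.167%). Of these, 22 stood higher in day 2.5 deficient than in day 2 control bodies, while control bodies went down between the days. Esrrb, an orphan nuclear receptor of naive pluripotency, was at 45.9, 53.3 and 49.8 CPM in day 2 control, 152, 130 and 110 CPM in day 2.5 deficient and 26.8, 30.5 and 26.8 CPM in day 2.5 control libraries. The 3 groups were apart: the rise over day 2 control was 1.40 ± 0.14 on the log2 scale (adjusted p 1.71e-05) and the control course fell by 0.83 (adjusted p 0.00445). Klf2, a Krüppel-like factor of the same network, rose from 39.5, 42.9 and 48.2 CPM to 115, 93.3 and 86.8 CPM (log2 1.17 ± 0.16, adjusted p 0.000156), against 32.0, 22.9 and 22.9 CPM in day 2.5 control.

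P2rx7, an ATP-gated ion channel, rose from 12.3, 12.5 and 13.1 CPM to 69.7, 55.2 and 43.9 CPM (log2 2.15 ± 0.18, adjusted p 2.71e-06), with 7.02, 5.77 and 6.36 CPM in day 2.5 control. Lgals3 (galectin 3), a sugar-binding protein, was at 3.52, 6.34 and 5.98 CPM in day 2 control, 18.6, 14.7 and 15.4 CPM in deficient and 2.30, 1.42 and 1.20 CPM in day 2.5 control libraries. Its log2 rise was 1.61 ± 0.22 (adjusted p 5.79e-05) against a control course of -1.68. The Notch ligand Dll1 averaged 33.9 CPM in day 2 control, 96.4 CPM in deficient and 18.5 CPM in day 2.5 control libraries, and Sstr5, a somatostatin receptor, 3.52, 16.1 and 2.34 CPM. Tex19.1, a germline gene that limits transposons, averaged 140, 311 and 77.8 CPM, and the adhesion receptor Icam1 33.7, 73.0 and 22.2 CPM.

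The 2 opposed genes that stood lower in day 2.5 deficient than in day 2 control bodies were Rac1 and Mogat2. Rac1, a small GTPase that acts on the actin cytoskeleton, was at 187, 178 and 178 CPM in day 2 control and 86.3, 88.1 and 91.5 CPM in day 2.5 deficient libraries, 2.04-fold lower (log2 -1.03 ± 0.05, adjusted p 1.81e-09). Deficient bodies already averaged 89.2 CPM on day 2, and day 2.5 control bodies 207 CPM. Mogat2, an enzyme of triglyceride synthesis, fell from 10.6 CPM to 4.52 CPM (log2 -1.22 ± 0.24, adjusted p 0.000903), with 16.9 CPM in day 2.5 control. The opposed count was 14 without day 2 control replicate 1 or day 2.5 control replicate 2, and 9 without replicate 3 of either control group.

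Own-direction genes were the largest class, 88 genes (0.613%), 72 upward and 16 downward including Trim33 itself. Fbxo15, an F-box gene long used as a marker of embryonic stem cells, rose from 38.7, 37.4 and 40.4 CPM to 150, 126 and 135 CPM (log2 1.82 ± 0.14, adjusted p 1.32e-06), while day 2.5 control libraries stayed at 42.5, 31.6 and 28.8 CPM. Cpeb2, of the family that binds cytoplasmic polyadenylation elements of messenger RNAs, rose from 10.9, 9.20 and 9.05 CPM to 35.3, 32.6 and 33.1 CPM (log2 1.79 ± 0.10, adjusted p 7.39e-09). Fmn2, a formin that nucleates actin, rose from 20.02, 15.8 and 18.2 CPM to 68.8, 60.1 and 56.96 CPM (log2 1.78 ± 0.11, adjusted p 2.07e-08). None of these 3 had overlapping groups, and their control courses were -0.18, 0.05 and -0.01 on the log2 scale. The uncharacterised AU015836 had the largest rise of the class, from 4.04 to 17.5 CPM, at 4.96 CPM in day 2 deficient bodies.

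Several p53 targets left the day 2 level this way. Btg2, an antiproliferative gene, rose from 55.7, 46.7 and 57.2 CPM to 144, 144 and 116 CPM (log2 1.34 ± 0.09, adjusted p 1.37e-07), with 66.4, 57.4 and 65.8 CPM in day 2.5 control. Cdkn1a (p21), an inhibitor of cyclin-dependent kinases, averaged 72.6 CPM in day 2 control, 172 CPM in deficient and 70.5 CPM in day 2.5 control libraries. Mdm2, the ubiquitin ligase of p53, averaged 182, 432 and 180 CPM. The signalling factor Stat3 rose from 33.04 to 70.7 CPM (log2 1.10 ± 0.10, adjusted p 9.51e-07), and Bambi, a decoy receptor of the TGF-beta family, from 12.4 to 27.1 CPM (log2 1.13 ± 0.10, adjusted p 6.66e-07).

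In the falling part of the class, Enpp2 (autotaxin), which makes lysophosphatidic acid, went from 150, 133 and 145 CPM to 37.0, 49.2 and 65.4 CPM (log2 -1.49 ± 0.19, adjusted p 0.000202), with 155, 158 and 157 CPM in day 2.5 control. The transcription factor Myb fell from 81.0, 112 and 87.1 CPM to 28.2, 31.9 and 46.3 CPM (log2 -1.38 ± 0.23, adjusted p 0.00115), with 77.8, 122 and 96.4 CPM in day 2.5 control. Fgf15, a growth factor of the early neural plate, fell from 36.2 to 14.4 CPM (log2 -1.32 ± 0.12, adjusted p 1.05e-06), and Zic5, a zinc finger factor, from 32.0 to 15.2 CPM (log2 -1.07 ± 0.11, adjusted p 2.95e-06). In each of these the deficient libraries lay below all control libraries of both days.

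**Figure D2:**
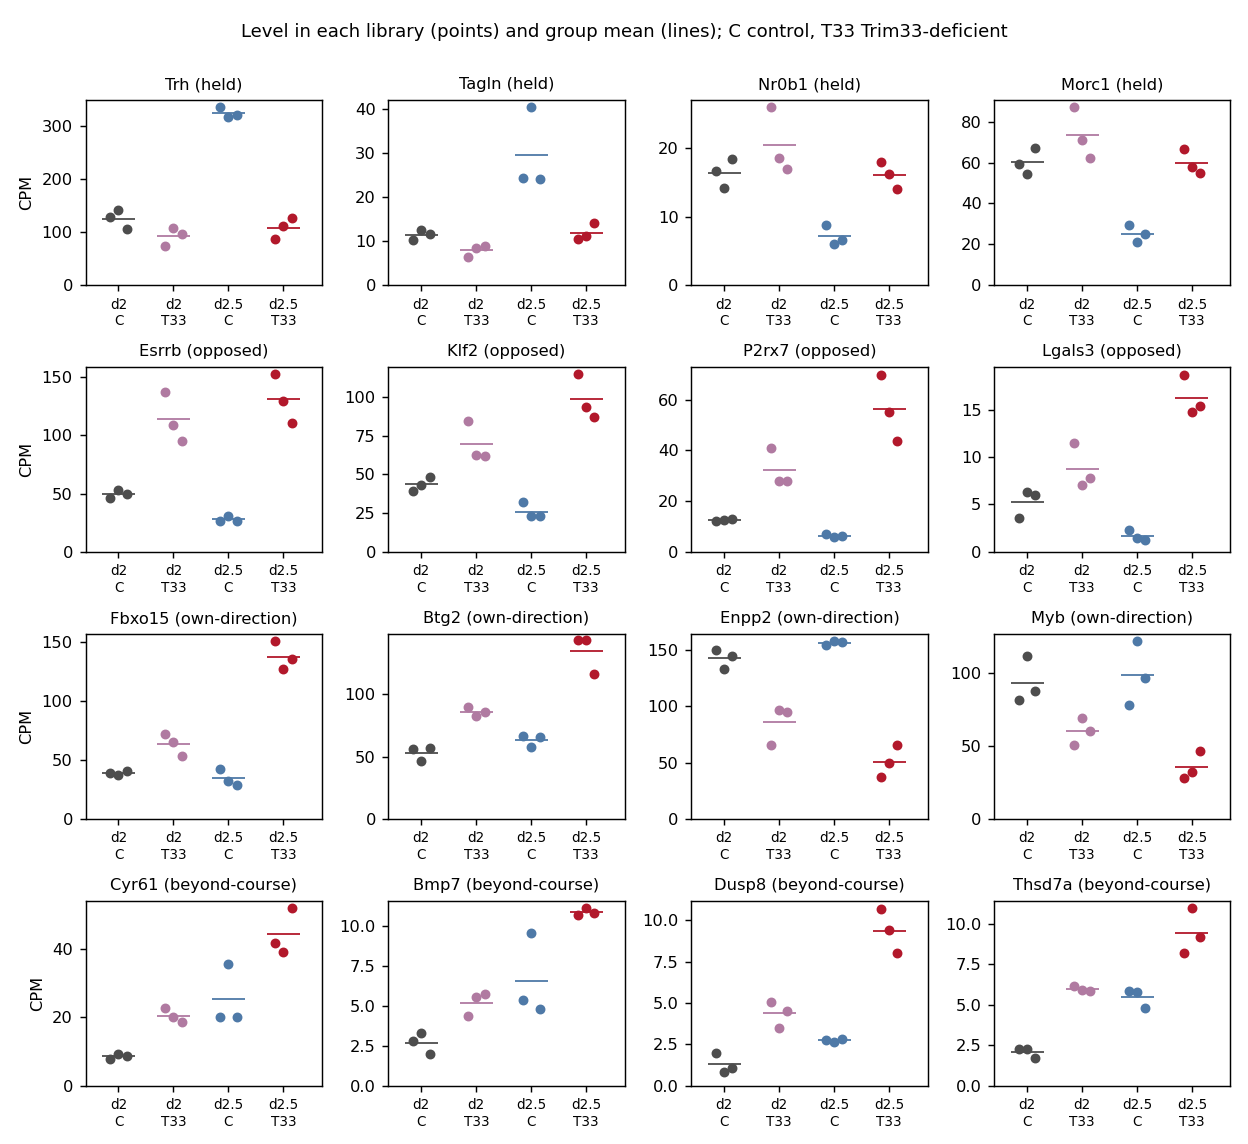
CPM of 16 genes in every library of the 4 groups (points; C control, T33 Trim33-deficient, d2 and d2.5 the days) with group means (lines), 4 genes each of the held, opposed, own-direction and beyond-course classes. Deficient day 2.5 points overlap those of day 2 control for Trh, Tagln, Nr0b1 and Morc1, and lie apart from them for the other 12 genes.

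The 28 gene lists below were written with earlier results of these data known, and some share members. Each is described by how many of its tested genes passed, against the 21.7% that rose and 20.5% that fell among all genes. Naive pluripotency genes stood mostly above the day 2 control level: 15 of 21 rose and 2 fell. Their median log2 fold change was 1.22 (-0.48 along the control course, where 2 rose and 6 fell). On day 2, 9 of the 21 were already higher in deficient bodies and 1 was lower. Tfcp2l1, a factor of the LIF-dependent network, was at 15.2, 21.2 and 16.3 CPM in day 2 control and 68.3, 53.5 and 54.5 CPM in day 2.5 deficient libraries (log2 1.74 ± 0.16, adjusted p 2.74e-06). Klf5 rose from 16.1 to 53.5 CPM, Tbx3 from 4.05 to 15.5 CPM and Klf4 from 3.38 to 8.60 CPM.

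Nanog went the other way. It was at 96.7, 140 and 105 CPM in day 2 control and 68.7, 77.1 and 81.5 CPM in day 2.5 deficient libraries, without overlap (log2 -0.59 ± 0.15, adjusted p 0.00922), while control bodies climbed to 163, 209 and 175 CPM. Day 2 deficient bodies were already at 75.8 CPM, the same mean as on day 2.5. Core pluripotency genes went both ways: 3 of 13 rose and 4 fell, with a median of -0.01, and the 3 became 1 without day 2 control replicate 2 or deficient replicate 3. Sox2 differed by 0.06 ± 0.06 on the log2 scale (adjusted p 0.443). Pou5f1 fell by 0.18 (adjusted p 0.0209, up to 0.0794 and no longer passing without day 2 control replicate 1 or deficient replicate 1 or 3).

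The LIF and STAT3 list had 10 of 16 genes up and 0 down (median 0.40, 0.05 along the control course). In deficient bodies 6 of the 16 were already higher on day 2, and 0 were lower. Socs3, the feedback inhibitor that STAT3 induces, was at 6.25, 5.49 and 5.27 CPM in day 2 control and 22.5, 15.1 and 18.6 CPM in day 2.5 deficient libraries (log2 1.73 ± 0.23, adjusted p 5.53e-05). Day 2 deficient bodies already had 19.3 CPM and day 2.5 control bodies 6.99 CPM. Socs3 and Esrrb, the latter an opposed gene of naive pluripotency, are shown here because each holds the letters TTCNNNGAA in the 250 bases before its start. Both promoters are from RefSeq (GRCm38.p6), written 5′ to 3′ along the gene, with the match in capitals, Socs3 at chr11:117969367-117969616 on the minus strand and Esrrb, in 1 of the windows listed for it, at chr12:86360867-86361116 on the plus strand.
Socs3: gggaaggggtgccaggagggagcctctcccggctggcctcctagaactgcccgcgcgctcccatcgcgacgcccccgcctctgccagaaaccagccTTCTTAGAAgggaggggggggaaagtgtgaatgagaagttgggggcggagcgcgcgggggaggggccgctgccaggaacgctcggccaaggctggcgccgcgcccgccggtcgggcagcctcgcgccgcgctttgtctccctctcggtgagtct
Esrrb: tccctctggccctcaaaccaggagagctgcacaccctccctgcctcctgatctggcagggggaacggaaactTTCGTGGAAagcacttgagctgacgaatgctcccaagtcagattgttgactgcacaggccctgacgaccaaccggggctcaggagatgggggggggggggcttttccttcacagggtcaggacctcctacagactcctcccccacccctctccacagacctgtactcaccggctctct
This motif reads the same on both strands, and 6.99% of the 11256 tested genes with a promoter hold it. In the LIF and STAT3 list 1 of 15 did, Socs3, and among opposed genes 2 of 16, Esrrb and Icam1. The naive pluripotency list had 1 of 13 (7.69%). A match of letters is a description, not a bound site.

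Primed epiblast genes stood mostly below the day 2 control level: 15 of 23 fell and 4 rose (median -0.56, -0.15 along the control course). The 4 became 2 without day 2 control replicate 2. Already on day 2, 7 of the 23 were lower in deficient bodies and 1 was higher. Otx2, a homeodomain factor of the primed state, was at 152, 244 and 180 CPM in day 2 control and 51.4, 57.4 and 101 CPM in deficient libraries (log2 -1.44 ± 0.30, adjusted p 0.00521). Day 2.5 control libraries stayed at 156, 227 and 175 CPM, so the deficient libraries lay below all 6 control libraries. The de novo DNA methyltransferase Dnmt3b was at 3694, 3198 and 3542 CPM in day 2 control and 1635, 1884 and 2133 CPM in deficient libraries (log2 -0.88 ± 0.10, adjusted p 2.06e-05). Its relative Dnmt3a also fell, by 0.97 on the log2 scale, but so did it in control bodies, by 0.74. Fgf5 fell by 0.35 (adjusted p 0.00474). Epha2 and Cdh2 were among the 4 that rose, by 0.92 and 0.84.

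Of 13 primitive streak genes 3 rose, a share near the 21.7% of all genes, and 1 fell (median 0.32). In the control course 4 rose and 0 fell (median 0.52). T (Brachyury) was at 1.12, 1.39 and 0.866 CPM in day 2 control, 0.727, 1.10 and 1.37 CPM in day 2.5 deficient and 3.15, 3.82 and 2.27 CPM in day 2.5 control libraries. The first 2 of these groups overlapped, but the 95% interval of their log2 difference, -0.78 to 0.65, was too wide to call T held. Fgf8 averaged 6.23, 4.12 and 13.4 CPM in that order (log2 -0.58 ± 0.23, adjusted p 0.058), and Eomes 14.5, 11.1 and 22.1 CPM (log2 -0.38 ± 0.17, adjusted p 0.0785). Both passed as falls without day 2 control replicate 1 (adjusted p 0.0191 for Fgf8 and 0.0434 for Eomes) or without day 2.5 deficient replicate 3 (0.0215 and 0.0099). Fgf8 also passed without day 2 deficient replicate 1 (0.0304), with the replicate number as a block (0.0453) and with DESeq2 (0.0456), and Eomes without day 2.5 control replicate 1 (0.0491). Snai1, a repressor of epithelial genes, rose by 1.22 on the log2 scale while its control course was -0.02.

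For Nodal itself the level rose from 132, 105 and 124 CPM to 200, 196 and 198 CPM (log2 0.72 ± 0.10, adjusted p 5.8e-05), and day 2.5 control libraries were at 155, 115 and 127 CPM. Its feedback inhibitor Lefty1 rose from 116 to 225 CPM (log2 0.95 ± 0.12, adjusted p 7.88e-05), whereas Lefty2 differed by 0.02 ± 0.10. Among Nodal and Activin targets 5 of 15 rose and 2 fell (median 0.12), the 2 becoming 1 without day 2 control replicate 3 or deficient replicate 1, and among pathway components 7 of 21 rose and 2 fell (median 0.16), 1 of the 2 being Trim33. Tgfbr2, the type II TGF-beta receptor, rose from 1.19 to 3.50 CPM (log2 1.56 ± 0.29, adjusted p 0.000442). Intervals of the transducers Smad2, Smad3 and Smad4 included 0, with log2 differences of -0.10, -0.14 and 0.07.

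BMP targets and Id genes rose in 12 of 16 cases and fell in 1 (median 1.00, 0.17 along the control course). Id1, an inhibitor of bHLH factors, was at 19.14, 15.6 and 16.8 CPM in day 2 control and 47.9, 48.6 and 47.1 CPM in deficient libraries (log2 1.48 ± 0.14, adjusted p 2.49e-06), with 24.0 CPM in day 2.5 control. Id2 rose by 0.91 and Id3 by 0.56. Tfap2c, an AP-2 factor of germ cells and trophoblast, rose from 3.20, 5.34 and 4.33 CPM to 20.6, 21.1 and 20.7 CPM (log2 2.27 ± 0.18, adjusted p 2.63e-07), at 4.87 CPM in day 2.5 control. Of 13 trophoblast and simple keratin genes, several of which are also in the BMP list, 8 rose and 1 fell (median 0.88): the keratin Krt8 rose from 9.17 to 32.7 CPM, while its partner Krt18 had 37.0, 78.1 and 39.7 CPM in control and 43.4, 40.2 and 66.8 CPM in deficient libraries and did not pass. Of the trophoblast markers, Cdx2, Elf5 and Prl3d1 were at 1.44 CPM or below in day 2 control and at 1.90 CPM or below in deficient libraries. The marker Krt7 was higher, at 3.86 to 6.42 CPM in day 2 control and 4.29 to 7.32 CPM in deficient libraries, and did not pass.

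YAP and TEAD targets rose in 13 of 15 cases, with 0 falls (median 0.73). In the control course 7 rose and 0 fell (median 0.32), and on day 2 already 8 of the 15 were higher in deficient bodies. Ctgf, a matricellular protein, was at 39.1, 31.0 and 36.5 CPM in day 2 control, 216, 217 and 231 CPM in day 2.5 deficient and 64.3, 65.7 and 65.0 CPM in day 2.5 control libraries (log2 2.64 ± 0.10, adjusted p 1.06e-09). The 3 groups were apart. Lats2, a kinase that restrains YAP, rose from 4.74 to 14.9 CPM (log2 1.66 ± 0.17). Amotl2 and Ajuba, which bind LATS and YAP proteins, rose from 116 to 213 CPM and from 276 to 436 CPM. Yap1 itself differed by -0.08 and did not pass.

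The promoters of Cyr61, Ajuba and Amotl2 are shown as examples of this list, most of whose promoters hold GGAATG, the core that TEAD factors bind. They are the 250 bases before each start in RefSeq (GRCm38.p6), 5′ to 3′ along the gene: Cyr61 at chr3:145649986-145650235 on the minus strand, Ajuba at chr14:54577662-54577911 on the minus strand and Amotl2 at chr9:102717554-102717803 on the plus strand. Capitals mark the match, here on the other strand and so written CATTCC.
Cyr61: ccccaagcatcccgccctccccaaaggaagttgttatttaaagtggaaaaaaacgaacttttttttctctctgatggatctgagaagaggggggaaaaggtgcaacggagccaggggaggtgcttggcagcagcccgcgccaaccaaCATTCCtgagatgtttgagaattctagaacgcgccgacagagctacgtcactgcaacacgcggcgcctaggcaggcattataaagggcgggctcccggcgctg
Ajuba: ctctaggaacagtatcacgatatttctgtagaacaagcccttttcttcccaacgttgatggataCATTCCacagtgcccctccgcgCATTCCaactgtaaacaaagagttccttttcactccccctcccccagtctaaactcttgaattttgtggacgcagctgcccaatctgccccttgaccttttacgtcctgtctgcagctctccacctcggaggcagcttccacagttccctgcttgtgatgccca
Amotl2: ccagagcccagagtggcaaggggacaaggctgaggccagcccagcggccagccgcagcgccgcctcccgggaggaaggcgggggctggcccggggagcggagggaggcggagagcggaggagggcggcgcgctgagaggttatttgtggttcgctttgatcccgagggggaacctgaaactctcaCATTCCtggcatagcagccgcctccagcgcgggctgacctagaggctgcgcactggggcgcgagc
On either strand, 8 of the 11 list genes with a promoter held the motif (72.7%), against 12.8% of the 11256 tested genes with one. It was in 5 of 19 beyond-course, 4 of 16 part-way, 2 of 17 held and 10 of 65 own-direction genes. On-course genes had it in 0 of 6 and opposed genes in 0 of 16. Among the 5 beyond-course genes, B020004J07Rik and Gm8994 hold it within the same stretch of bases. The list was looked up after its rise had been seen. Its genes were listed as known targets of YAP and TEAD factors, so a high share of the motif does not bear on their rise. Any part of the motif in the rise was not tested. Letters for SMAD factors (CAGAC, 45.7% of tested genes) were in 8 of 17 held genes, and those for FOXH1 (AATNCACA, 2.35%) in 0 of 17. Both strands were searched, and matches of different motifs may share bases.

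The p53 and DNA damage list rose in 22 of 29 cases and fell in 3 (median 0.68, -0.03 along the control course), and on day 2 14 of the 29 were already higher in deficient bodies. Perp, a p53-induced membrane protein, was at 21.4, 15.9 and 19.0 CPM in day 2 control, 87.2, 78.5 and 63.9 CPM in day 2.5 deficient and 29.2, 24.0 and 28.0 CPM in day 2.5 control libraries (log2 2.03 ± 0.14, adjusted p 1.85e-07). The kinase Plk2 rose from 81.0, 45.8 and 70.5 CPM to 272, 259 and 216 CPM (log2 1.92 ± 0.23, adjusted p 0.000183). Trp53 itself differed by -0.01 and did not pass. Replication and mitosis genes fell in 18 of 25 cases and rose in 0 (median -0.31, -0.05 along the control course). Of the 25, 13 were already lower in deficient bodies on day 2 and 0 were higher. Cyclin E1 (Ccne1) went from 295, 245 and 287 CPM to 162, 159 and 180 CPM (log2 -0.72 ± 0.08, adjusted p 1.77e-05). The helicase subunits Mcm6 and Mcm3 fell by 0.42 and 0.38, while Mki67, Cdc20 and Aurka differed by -0.07, -0.07 and -0.04 and did not pass.

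**Figure D3:**
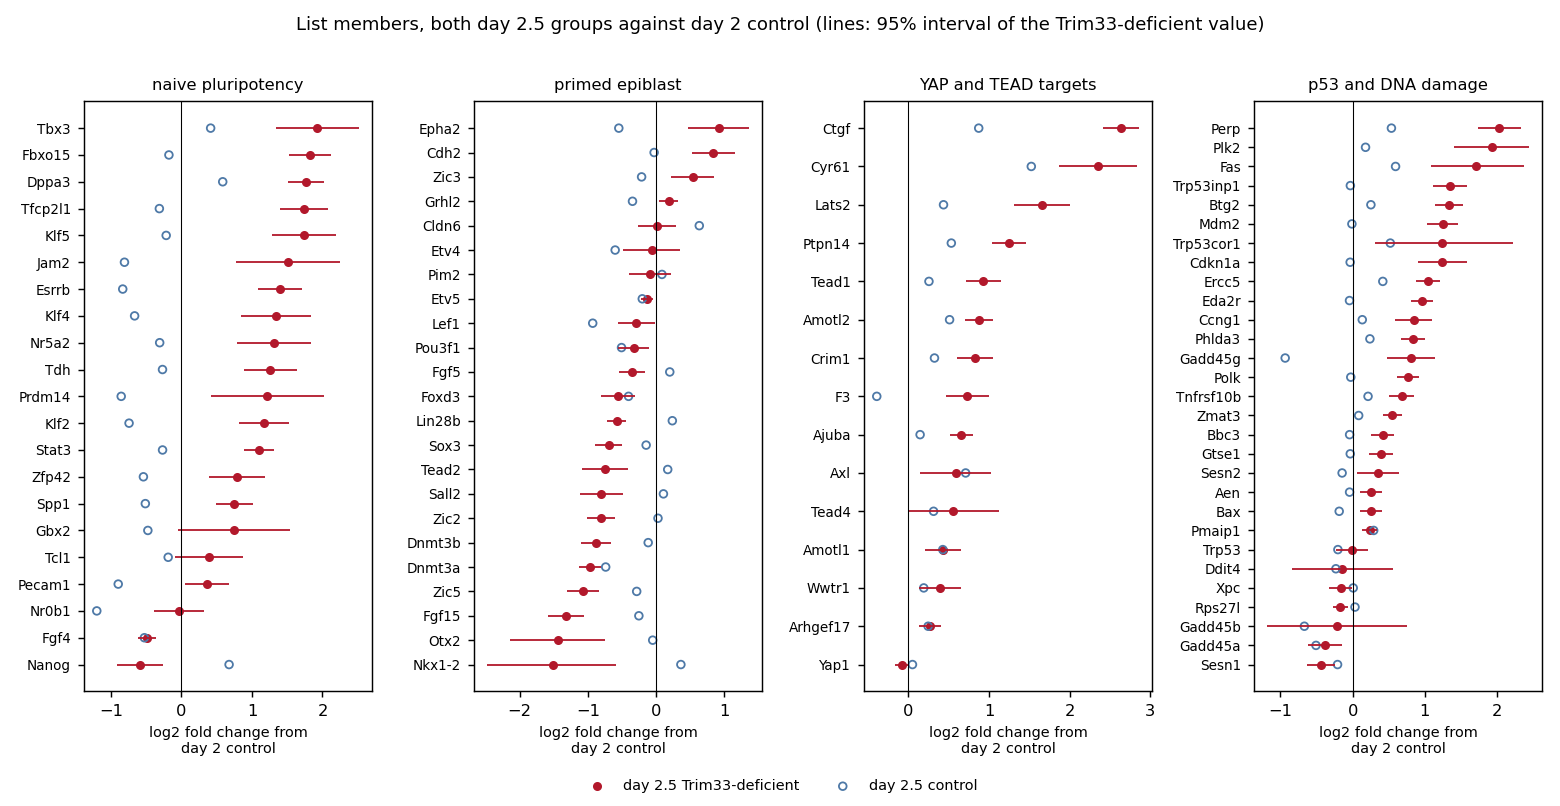
Log2 fold change from day 2 control of each tested gene of the naive pluripotency, primed epiblast, YAP and TEAD, and p53 lists, in day 2.5 Trim33-deficient bodies (filled points, lines the 95% interval) and in day 2.5 control bodies (open points). Most naive, YAP and p53 genes lie to the right of 0 and most primed genes to the left in deficient bodies, and Nanog and Otx2 lie to the left.

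Genes of the 2-cell-like state, a rare transcriptional state of stem cell cultures, rose in 20 of 21 cases (median 2.38), while 7 rose in the control course (median 0.76) and 0 of the 21 passed between the genotypes on day 2. Zscan4d, of the Zscan4 cluster, was at 20.7, 12.8 and 19.6 CPM in day 2 control, 71.9, 78.0 and 69.5 CPM in day 2.5 deficient and 36.9, 21.8 and 27.8 CPM in day 2.5 control libraries (log2 2.05 ± 0.23, adjusted p 5.96e-05). Dux, the homeobox factor that switches this state on, rose from 1.36, 0.928 and 1.10 CPM to 4.15, 4.54 and 4.46 CPM (log2 1.95 ± 0.26, adjusted p 2.74e-05). Zfp352 rose from 3.61 to 28.4 CPM. Zscan4, Usp17l, Tdpoz and Dux belong to families of near-identical copies, among which the authors' counting could split or drop reads, so their single values are uncertain.

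Of the cholesterol synthesis genes 16 of 23 rose and 1 fell (median 0.29), while in the control course 0 rose and 10 fell (median -0.22). On day 2, 19 of the 23 were already higher in deficient bodies. Cyp51, a sterol demethylase, was at 165, 176 and 166 CPM in day 2 control, 359, 338 and 314 CPM in day 2.5 deficient and 150, 143 and 150 CPM in day 2.5 control libraries (log2 1.00 ± 0.05, adjusted p 1.83e-09). In the amino acid response list 9 of 22 genes fell and 3 rose (median -0.21), against 12 falls and 0 rises in control bodies (median -0.37), and the 3 became 5 without the 3 libraries that stood apart. Asns, asparagine synthetase, averaged 167 CPM in day 2 control, 137 CPM in deficient and 129 CPM in day 2.5 control libraries. Hypoxia and glycolysis genes gave 5 falls and 1 rise among 26 (median -0.37), and the 5 falls became 2 without day 2 control replicate 2, the library highest in these genes, or without deficient replicate 1, and 3 without deficient replicate 2.

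Annexins, S100 proteins and galectins, families of calcium- and sugar-binding proteins, rose in 14 of 20 cases with 0 falls (median 0.88, -0.01 along the control course). Ahnak, a giant scaffold that binds S100a10, was at 14.4, 5.95 and 11.2 CPM in day 2 control, 107, 69.3 and 88.1 CPM in day 2.5 deficient and 12.4, 9.95 and 8.25 CPM in day 2.5 control libraries (log2 3.07 ± 0.33, adjusted p 7.35e-05). S100a10 itself rose from 13.8 to 39.1 CPM and Lgals1 from 30.4 to 78.0 CPM. Anxa2, the partner of S100a10, read 21.2, 62.2 and 26.4 CPM in control and 46.9, 39.6 and 40.7 CPM in deficient libraries, and did not pass. Without the 3 libraries that stood apart, the highest of these among them, its log2 rise was 0.83 (adjusted p 2.07e-06). In the FGF and ERK list 11 of 22 rose and 3 fell (median 0.32): Spry4, a feedback inhibitor, rose from 42.0 to 91.4 CPM and Dusp6 from 136 to 182 CPM, whereas the ligand Fgf4 fell by 0.49. The call of Spry4 (adjusted p 0.024) was lost, at up to 0.0743, without day 2 control replicate 2 or 3 or deficient replicate 1 or 2.

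**Figure D4:**
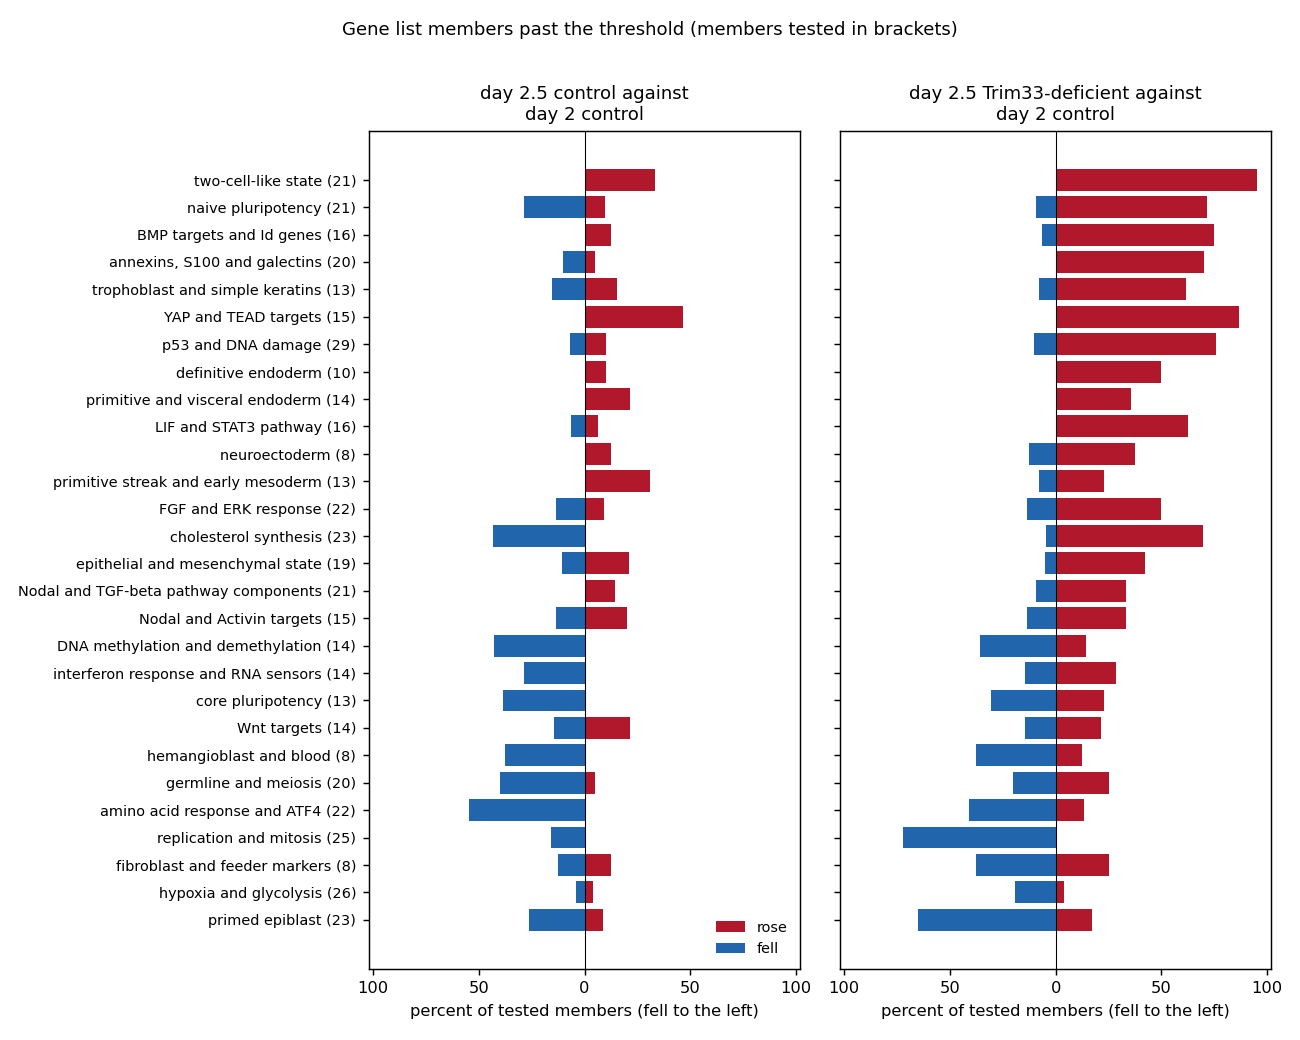
For each of the 28 gene lists, the percent of tested genes that rose (right) and fell (left) at an adjusted p under 0.05, in day 2.5 Trim33-deficient against day 2 control bodies and along the control course. In deficient bodies the 2-cell-like list has 20 of 21 genes to the right, and the replication and mitosis list 18 of 25 to the left and 0 to the right.

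Definitive endoderm genes rose in 5 of 10 cases with 0 falls (median 0.56), and primitive and visceral endoderm genes in 5 of 14 with 0 falls (median 0.44). Their shared member Sox17, an endoderm factor, rose from 0.240, 0.387 and 0.236 CPM, near the floor, to a mean of 1.02 CPM with the lowest library at 0.732 CPM (log2 1.81 ± 0.46, adjusted p 0.00452), while Gata6 passed only without day 2 control replicate 3 (adjusted p 0.0792, then 0.0372). Neuroectoderm genes gave 3 rises and 1 fall among 8 (median 0.33), the 3 becoming 1 without deficient replicate 2, and Sox1 and Pax6 did not pass, though Pax6 lay near the threshold (log2 0.36, adjusted p 0.0509, and 0.0383 to 0.176 over the alternatives). Blood markers gave 1 rise and 3 falls among 8 (median -0.02), with 2 rises without day 2 control replicate 2, day 2 deficient replicate 1 or day 2.5 deficient replicate 3. Their summed level was 90.1 to 106 CPM in control and 92.4 to 121 CPM in deficient libraries. Fibroblast markers gave 2 rises and 3 falls among 8 (median -0.36): Col3a1 rose from 0.892 to 2.56 CPM and Thy1 fell from 13.6 to 7.42 CPM. Of the remaining lists, germline and meiosis gave 5 rises and 4 falls among 20 (2 falls without deficient replicate 3), Wnt targets 3 and 2 among 14, and epithelial and mesenchymal genes 8 and 1 among 19. DNA methylation genes gave 2 rises and 5 falls among 14, with 1 to 3 rises when 1 library was left out. Interferon genes gave 4 rises and 2 falls among 14, with 1 to 4 rises and 1 to 4 falls when 1 library was left out, and with 2 rises and 4 falls without day 2 control replicate 1. Leaving out day 2 control replicate 1 or deficient replicate 3 gave 3 falls in the primitive streak list, 2 in the trophoblast list and 0 in the BMP list, in place of 1 in each. The part of other cell types in these results was not tested.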

How the data were processed

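RNA was sequenced from 12 libraries of mouse embryoid bodies, 3 in each of 4 groups, and the groups were taken from the sample titles. The authors deposited a file for each library with raw read counts by gene symbol. STAR, HTSeq, DESeq and the mouse build mm9 are named in the submitters' processing notes. The versions of these tools, the annotation and the strand setting are not stated there, so overlapping genes and genes with near-identical copies are uncertain. The 5 closing rows, which name no gene, were left out. Between 39.3 and 43.9% of the reads counted had been given to a gene, and 55.9 to 60.5% to none. A spreadsheet had made dates of 27 symbols in replicate 1 of the day 2.5 deficient bodies, and these symbols were restored from the row order, which all files share.

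From these counts edgeR 4.0.16 (R 4.3.3) gave TMM factors, a filterByExpr filter that kept 14356 of 24015 gene rows, and robust quasi-likelihood tests in which every library entered with its group's mean (12 libraries, 8 residual degrees of freedom). Benjamini-Hochberg adjustment ran over all genes tested in each comparison. Standard errors were derived from the F statistics, and 95% intervals from the t distribution. For the smallest log2 differences a Wald standard error, taken from the fitted model, was used instead. Replicates are separate libraries, and p-values measure the spread between them, which may be partly technical. No pair of libraries was as alike as sampling noise allows. The scripts were tested on simulated counts.

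The classes, the gene lists and the genes named were chosen with earlier results of these data known. Named genes are Trim33, the 10 largest rises and falls without overlap and with a mean of at least 1 CPM, up to 5 genes of each class and direction, at most 4 of each list's tested members by smallest adjusted p, and cell type markers. The text describes only part of these. The following genes lie outside that rule and were chosen after their values were seen: Esrrb, Klf2, Klf4, Klf5, Tbx3, Nr0b1, Morc1, Notch4, Ifi35, Prom1, Bmp7, Dusp8, Casp8, Icam1, Cdkn1a, Mdm2, Trp53, Plk2, Socs3, Epha2, Lefty2, Smad2, Smad3, Smad4, Id3, Krt18, Ajuba, Yap1, Ccne1, Mcm3, Mki67, Cdc20, Aurka, Dux, Zfp352, Asns, Ahnak, Anxa2, Spry4, Dusp6, Dnmt3l, Zscan4d and Rn45s. Promoters were matched by symbol or by older name and gene ID for 11256 of the genes tested and for 139 of the 190 class genes, and their build, GRCm38.p6, is not that of the counts.

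As alternatives the tests were repeated with DESeq2 1.42.0, with other size factors or filters on low counts, with a replicate block, with fits to the compared libraries alone, without ribosomal RNA rows or without the 3 libraries that stood apart (day 2 control replicate 2, day 2 Trim33-deficient replicate 1 and day 2.5 control replicate 2), with other class limits, and with each library left out in turn.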

Additional observations from a re-analysis of the deposited data

How the results depend on the processing

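The count of genes that differed between day 2.5 Trim33-deficient and day 2 control bodies was 6051, ran from 4787 to 6304 when 1 library was left out, and was 5542 with DESeq2. Rises made up a similar share under every scaling (3008 rises and 3085 falls with upper-quartile factors). Leaving out 1 library gave 1235 to 2393 genes in the control course, 10 to 28 held, 11 to 25 part-way, 6 to 17 on-course, 9 to 42 beyond-course, 9 to 31 opposed and 59 to 105 own-direction genes. Beyond-course genes numbered 16 without the 3 libraries that stood apart. With a replicate block the main count was 6450, the control course count was 2776 against 2313, and opposed genes numbered 39, including the 24 without it. The 3 same-numbered pairs of compared libraries had deviations correlated at -0.055, -0.059 and -0.070. Between the days in control bodies the same-numbered pairs were at 0.365, 0.451 and 0.032, against -0.446 to 0.175 for unlike numbers, and replicate 3 of day 2 was nearer to replicate 1 than to its own number. The number was therefore not taken to pair the libraries.

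The class limits set the class sizes. A 1.5-fold minimum in place of 2-fold gave 167 held, 53 part-way, 115 on-course, 78 beyond-course, 74 opposed and 587 own-direction genes. An interval within 2-fold gave 91 held, 42 on-course and 356 own-direction genes, and the narrowest limit tried gave 3, 2 and 19. Of 178 genes named by rule, 156 passed, of which 140 kept their call under every alternative run, and 0 reversed. Of 43 chosen after their values were seen, 27 passed, 25 kept their call and 0 reversed. Hypoxia and glycolysis falls, 5 by the main test, numbered 8 with the block or DESeq2 and 3 in the 6 compared libraries alone. With 3 libraries a group, intervals of low genes such as T were too wide to place them in a class.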

Other observations

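Of 8 genes of early blood and endothelium tested, 1 rose and 3 fell, against 21.7% and 20.5% of all genes. Along the control course 0 rose and 3 fell. The 3 that fell in deficient bodies are transcription factors of that lineage, as is Gata2, which rose. Lmo2 was at 7.93, 11.1 and 10.5 CPM in day 2 control and 3.64, 3.15 and 3.57 CPM in day 2.5 Trim33-deficient libraries (log2 -1.50 ± 0.18, adjusted p 9.5e-06 in edgeR's quasi-likelihood test), and at 4.79, 7.55 and 6.86 CPM in day 2.5 control. Etv2 fell from 3.44 to 1.75 CPM (log2 -0.98 ± 0.24, adjusted p 0.00404), and Tal1 by 0.66 on the log2 scale, while Gata2 rose by 1.01. For Tal1 the day 2.5 control libraries, at 5.18, 6.84 and 6.30 CPM, overlapped the day 2.5 deficient ones, at 5.96, 5.41 and 4.94 CPM.

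Some genes did not change alike within one pathway. The stress factor Atf3 rose from 0.961, 1.08 and 0.944 CPM to 5.24, 5.34 and 4.88 CPM (log2 2.36 ± 0.28, adjusted p 9.92e-06), while Asns of the same list fell. Dnmt3l, a cofactor of the de novo methyltransferases, rose by 0.85 (adjusted p 0.039) while Dnmt3a and Dnmt3b fell, but its call was lost, at up to 0.119, without any 1 of the 6 compared libraries, without day 2.5 control replicate 3, or with no filter on low counts. Il6ra, a receptor of STAT3 signalling, averaged 1.90 CPM in day 2 control, 1.84 CPM in day 2 deficient and 7.26 CPM in day 2.5 deficient bodies. Socs3 and Stat3 averaged 19.3 and 67.5 CPM in day 2 deficient bodies. Whether these levels are linked was not tested. Rac1 was at 89.2 CPM on day 2 and 88.6 CPM on day 2.5 in deficient bodies.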
